A study of Mus musculus with 6 samples.

Results

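The genes described here are 9 components and regulators of complement: C3, C4b, C2, Cfb, Cfp, C1ra, C1s1, Serping1 and C3ar1. They were chosen by name and found by gene symbol, and all 9 are among the 16964 genes that every count table lists, of 20672 genes in any of them. All 9 also passed the filter on low counts, which left 15856 genes to test.

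Complement is a protease cascade of blood and tissue fluid whose routes meet at the cleavage of C3 and go on to the membrane attack complex. The classical route starts with C1q and the proteases C1r and C1s, of which C1s cuts C4 and C2. The alternative route amplifies C3 cleavage through factor B, factor D and properdin. Liver makes most circulating components, while macrophages, fibroblasts and adipocytes are known to make several of them locally, and adipocytes are the main source of factor D.

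The libraries are RNA-seq from mouse hind limb, 2 of infrapatellar fat pad (a fat body behind the patellar ligament), 2 of rectus femoris (a thigh muscle) and 2 of Achilles tendon. The series title gives female mice and letrozole, an aromatase inhibitor, and asks about its part in joint pain. Both fat pad titles carry the drug's name and no muscle or tendon title does, and no label separates treated from control libraries inside a tissue, so drug and control were not compared, and if the name marks treatment, drug and tissue cannot be told apart wherever the fat pad is one side. The labels give no strain, age, dose or duration, and do not tell whether a tissue's libraries come from separate or pooled animals. The spread behind each p-value may therefore be technical.

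Depth was 56216295 to 106319037 counts per library. All 6 libraries carry the fat pad as source and tissue label, and the grouping used here is that of the treatment label, which gives 3 tissues. Defining markers followed it. The summed level of 8 adipocyte markers was 11878 and 12108 CPM (counts scaled to library size, here by trimmed mean of M-values, TMM) in fat pad, against 128 and 310 in muscle and 1354 and 168 in tendon. The summed level of 10 fast muscle markers was 242 and 220 CPM in fat pad, against 363786 and 316839 in muscle and 28250 and 81215 in tendon. Tendon markers (8 genes) summed to 19217 and 19828 CPM in tendon and to at most 2192 CPM elsewhere. None of these markers was at 0 counts in any library.

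The authors deposited counts and TPM (abundance scaled for length and library size) separately, and these sources disagree within a tissue. In the fat pad, the log2 ratio of library 2 to library 1 from TPM followed that from counts (r = 1.00 across 12486 genes). In muscle (r = -0.23 across 11357 genes) and in tendon (r = -0.24 across 12366 genes) it did not. Genes are not independent replicates, so r is only a description. Which source belongs to the library of a given name in muscle and tendon cannot be told, so counts served as the main values. TPM values stand beside them where they end or add a call of one of the 9 genes.

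**Figure D1:**
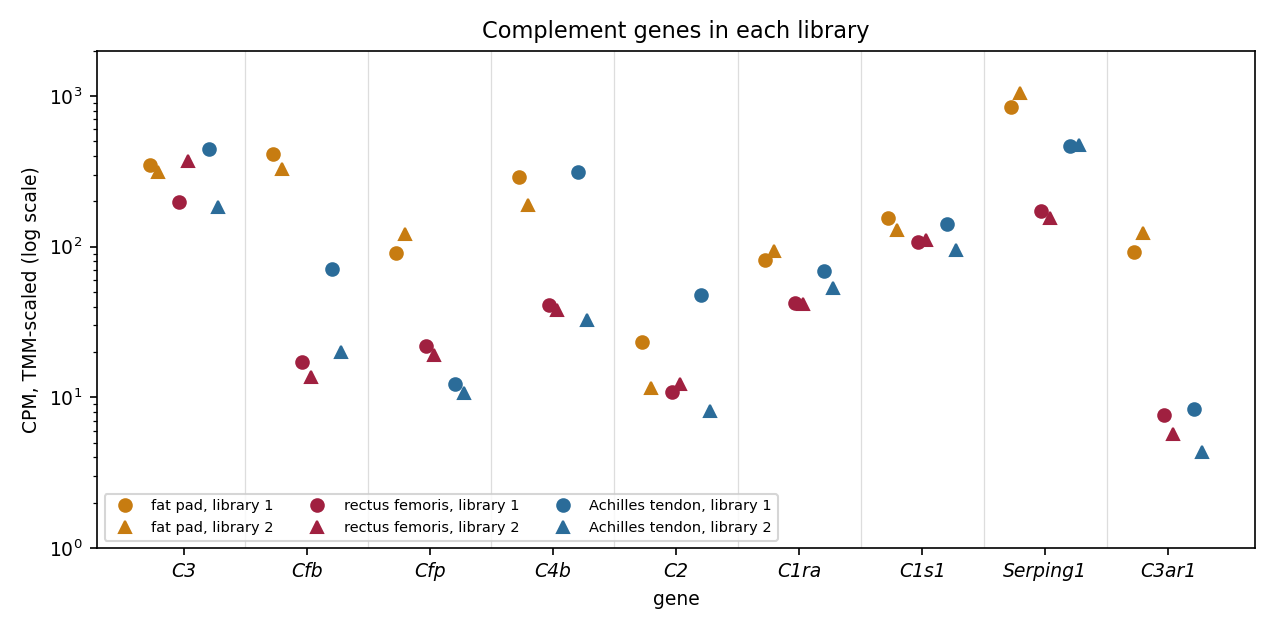
CPM (TMM-scaled, logarithmic axis) of the 9 complement genes in each of the 6 libraries, with colour for tissue and circles and triangles for libraries 1 and 2. C3ar1, Cfp and Cfb are highest in both fat pad libraries, Serping1 follows the order fat pad, tendon, muscle, and C4b, C2, C3 and Cfb separate the tendon libraries from each other.

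Relative to muscle, the fat pad had 6 of the 9 genes higher and 0 lower: Cfb, C3ar1, C4b, Serping1, Cfp and C1ra (edgeR's quasi-likelihood test, Benjamini-Hochberg adjusted p under 0.05). Over all genes tested, 29.8% were called higher in that comparison and 29.6% lower. Relative to tendon, the fat pad had 4 of the 9 higher and 0 lower: C3ar1, Cfp, Cfb and Serping1, beside 27.2% of all genes called higher and 31.4% lower. Between tendon and muscle, 1 gene was higher in tendon (Serping1) and 1 lower (Cfp), beside 13.3% and 12.7% of all genes. The median log2 fold change of the 9 genes was 2.37 over muscle and 0.53 over tendon, and 0.54 when tendon was set over muscle, against 0.14, -0.01 and 0.10 over all genes tested. For the counts of 0, DESeq2 also called 0 members lower, and edgeR gave none at an unadjusted p under 0.05.

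With the TPM columns scaled by TMM, an alternative added after the data were seen, the 6 genes higher over muscle and the 4 higher over tendon were called again. C2 was then also called lower in fat pad than tendon, at -0.88 ± 0.30 (limma, adjusted p = 0.0318). With that source 4 genes were called higher in tendon than in muscle and 0 lower, and Serping1 is the gene shared with the counts. Over all genes, it called 4481 higher and 4818 lower in fat pad than in muscle. For the other 2 comparisons its calls over all genes are not given here, so the members called there stand without that background. The median of all genes in this source was -0.05, -0.11 and 0.03 in the 3 comparisons, against 2.19, 0.52 and 0.84 for the 9 genes. Without scaling, the TPM columns move the median of all genes to -0.41, -0.96 and 0.52 in the 3 comparisons. Each tissue enters more than one comparison, so the comparisons share libraries.

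**Figure D2:**
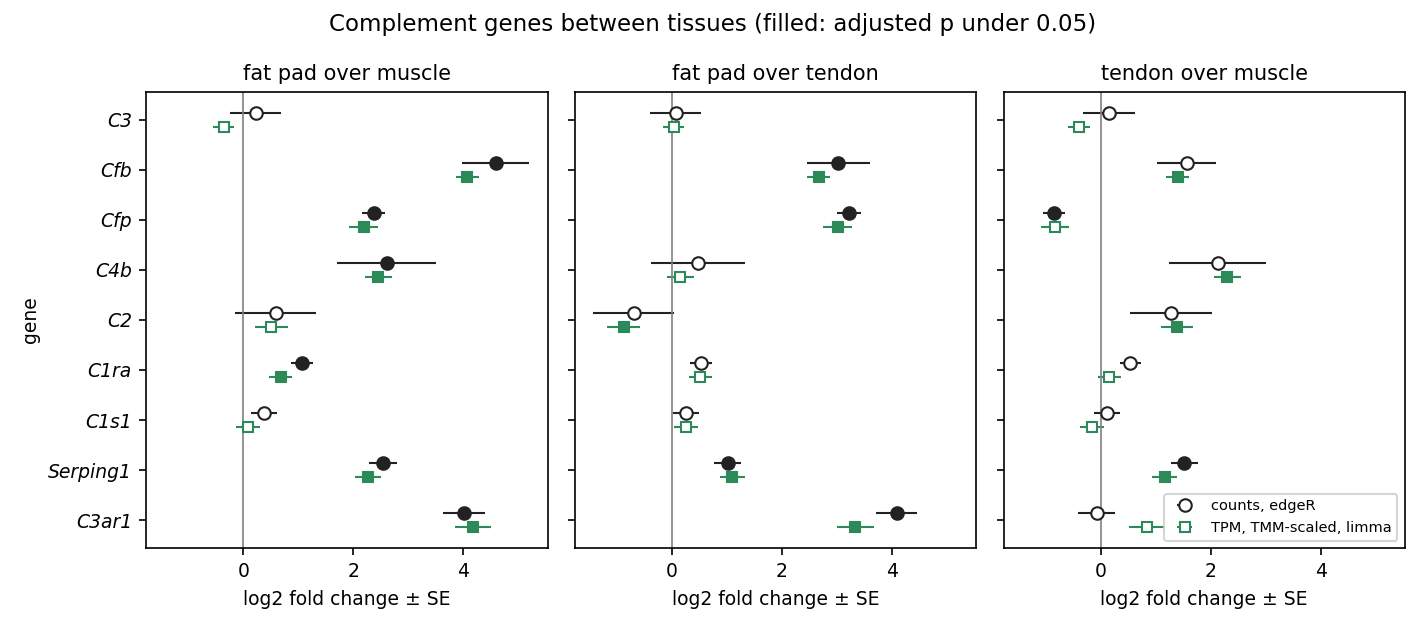
Log2 fold change with its standard error for each of the 9 genes in the 3 tissue comparisons, from counts with edgeR (black circles) and from TMM-scaled TPM with limma (green squares); filled symbols have an adjusted p under 0.05. The 2 sources call the same 6 genes higher in fat pad than in muscle, and their calls differ for C4b, C2, Cfb and Cfp between tendon and muscle, where C3ar1 has the widest gap between sources (-0.07 and 0.84).

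C3 is the central component that every route cleaves. It was counted at 349.6 and 311.6 CPM in fat pad, against 196.7 and 369.5 in muscle and 445.2 and 184.3 in tendon. The 3 tissues overlap, and the largest gap is between the tendon libraries. No C3 difference between tissues was called: fat pad over muscle was 0.22 ± 0.47 (log2 ± SE, edgeR adjusted p = 0.699) and fat pad over tendon 0.07 ± 0.47 (adjusted p = 0.906). Scaled TPM called none either, whereas unscaled TPM put C3 lower in the fat pad, at -0.82 over muscle (limma, adjusted p = 0.0166) and -0.99 over tendon (adjusted p = 0.00638). A p above the threshold does not show that the levels are equal.

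The promoter of C3 is shown because C3 is the point at which all routes meet and its window held the most motif matches among the members. The sequence is from RefSeq (GRCm38.p6), which has a window for 5 of the 9 members; no window for C4b, C2, Cfb or Serping1 was used. The 250 bases before the annotated start lie at chr17:57228137-57228386 on the minus strand, and capitals mark matches to the motifs searched.
C3: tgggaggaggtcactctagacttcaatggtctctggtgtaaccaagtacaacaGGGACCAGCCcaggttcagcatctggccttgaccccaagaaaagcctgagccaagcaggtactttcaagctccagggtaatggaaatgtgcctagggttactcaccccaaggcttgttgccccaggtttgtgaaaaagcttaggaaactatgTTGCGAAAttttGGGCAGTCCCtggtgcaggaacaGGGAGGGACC
Searched on both strands were TATAAA, TTCNNNGAA (gamma-activated site), GAAA, any 2 bases and GAAA (interferon-stimulated response element), GGGA, any 4 bases and CC (NF-kB-like), and TTGCNNAA (C/EBP-like). C3 held 3 NF-kB-like matches, at 197 to 188, 33 to 24 and 10 to 1 bases before the start, and 1 match to TTGCNNAA, at 45 to 38. None of these matches overlap. Of 32851 promoters of this length, 17.6% hold the NF-kB-like motif and 9.56% TTGCNNAA, so a match is common and is a description, not a binding site.

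Cfb encodes factor B, the protease subunit of the alternative C3 convertase. Its counts were 411.0 and 325.4 CPM in fat pad, against 17.1 and 13.5 in muscle and 70.7 and 19.9 in tendon. Both fat pad libraries stand above all 4 others. Fat pad over muscle was 4.59 ± 0.61 (edgeR adjusted p = 0.000732), the largest change among the 9 genes in counts, and fat pad over tendon 3.02 ± 0.57 (adjusted p = 0.00353). Tendon over muscle, at 1.56 ± 0.54, missed the threshold in counts (adjusted p = 0.0732) and was 1.4 ± 0.2 and called from scaled TPM (limma, adjusted p = 0.00691). Without tendon library 2 the edgeR value was 2.21 and called. A fit that leaves 1 library in a tissue takes its spread from the other tissues and assumes that the lone library varies as they do, here and for the genes below. From scaled TPM, C3ar1 exceeded Cfb over muscle (4.17 against 4.07).

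Cfp encodes properdin, which stabilises that convertase and is made by myeloid cells. It stood at 91.5 and 120.8 CPM in fat pad, against 22.0 and 19.2 in muscle and 12.3 and 10.6 in tendon. The tissues do not overlap. Cfp was higher in the fat pad by 2.37 ± 0.21 over muscle (edgeR adjusted p = 0.000133) and by 3.21 ± 0.22 over tendon (adjusted p = 8.01e-05). Its lower level in tendon than in muscle, -0.85 ± 0.20 (adjusted p = 0.0275), was the weaker call. It was lost with total-count scaling (-0.11), from scaled TPM (-0.83, limma adjusted p = 0.0627), from unscaled TPM (-0.28) and without any 1 of the 4 muscle and tendon libraries (-0.97 to -0.74). With the library number as a replicate block the edgeR adjusted p was 0.0544.

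C4b and C2 encode the components that C1s cuts to form the classical C3 convertase. C4b was counted at 290.2 and 189.9 CPM in fat pad, against 41.1 and 38.0 in muscle and 314.1 and 32.4 in tendon. Tendon library 1 is above both fat pad libraries, and tendon library 2 is below both muscle libraries. C4b was higher in fat pad than in muscle by 2.60 ± 0.90 (edgeR adjusted p = 0.0415). That call was lost without any 1 fat pad or muscle library (2.30 to 2.87, adjusted p = 0.0849 to 0.151), and from scaled TPM it was 2.45 ± 0.25 (limma, adjusted p = 0.000114).

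C4b values against tendon differed with the tendon library used. Fat pad over tendon was 0.47 ± 0.85 in counts (edgeR adjusted p = 0.655) and 2.94, called, without tendon library 1. It was 0.15 from scaled TPM, not called, and -0.87 from unscaled TPM, called lower (limma, adjusted p = 0.611 and 0.0295). Tendon over muscle was 2.13 ± 0.88 (adjusted p = 0.116) and 2.99, called, without tendon library 2. In TPM, where tendon stands at 213 and 283 and muscle at 39.8 and 27.4, scaled tendon over muscle was 2.30 ± 0.25 and called (limma, adjusted p = 0.00318).

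C2 stood at 23.2 and 11.5 CPM in fat pad, against 10.9 and 12.2 in muscle and 48.1 and 8.16 in tendon. All 3 tissues overlap, and no C2 difference was called in counts: fat pad over muscle was 0.58 ± 0.74, fat pad over tendon -0.70 ± 0.73 and tendon over muscle 1.28 ± 0.74 (edgeR adjusted p = 0.516, 0.440 and 0.238). Without tendon library 2, C2 was called lower in fat pad than in tendon at -1.48 and higher in tendon than in muscle at 2.06. Scaled TPM also put C2 higher in tendon than in muscle, at 1.39 ± 0.30 (limma, adjusted p = 0.0188), and unscaled TPM put it lower in fat pad than tendon, at -1.82 (adjusted p = 0.000857).

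C1ra and C1s1 encode the proteases of the C1 complex and lie near each other on chromosome 6. C1ra was counted at 81.4 and 93.8 CPM in fat pad, against 41.9 and 41.6 in muscle and 68.8 and 52.8 in tendon. The tissues do not overlap and follow the order fat pad, tendon, muscle. C1ra was higher in fat pad than in muscle by 1.07 ± 0.20 (edgeR adjusted p = 0.00308), a call kept with scaled TPM (0.68 ± 0.21) and lost with unscaled TPM (0.22). Against tendon, 0.53 ± 0.19 fell just outside the threshold (adjusted p = 0.0515) and was called with RLE scaling (0.64, adjusted p = 0.0267) and without fat pad library 1 (0.69) or tendon library 1 (0.78).

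C1s1 had the narrowest range over the 6 libraries of the 9 genes. It stood at 154.2 and 128.1 CPM in fat pad, against 107.7 and 110.2 in muscle and 140.9 and 95.4 in tendon. The fat pad is above muscle in both libraries, and tendon spans them. Its fold changes were 0.37 ± 0.24, 0.26 ± 0.24 and 0.12 ± 0.24 in the 3 comparisons, none called by edgeR (adjusted p = 0.217, 0.389 and 0.744). With total-count scaling, fat pad over muscle (0.89) and tendon over muscle (0.86) were called, in a setting that moves the median of all genes by 0.51 and 0.73. Unscaled TPM called C1s1 lower in fat pad than tendon, at -0.76 (limma, adjusted p = 0.0314).

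C1ra and C1s1 were also the 2 members with the most similar profile. Their TMM log2 CPM, centred over the 6 libraries, differed by a root mean square of 0.32, beside 0.33 for C3 and C1s1, the next pair. Their promoters are shown for that reason (RefSeq, GRCm38.p6), C1ra at chr6:124512371-124512620 on the plus strand and the first of 2 C1s1 windows at chr6:124542360-124542609 on the minus strand.
C1ra: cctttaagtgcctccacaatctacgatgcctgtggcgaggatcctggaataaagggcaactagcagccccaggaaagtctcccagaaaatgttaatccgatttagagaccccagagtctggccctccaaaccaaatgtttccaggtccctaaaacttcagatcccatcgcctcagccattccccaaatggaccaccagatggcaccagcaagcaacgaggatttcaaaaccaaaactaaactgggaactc
C1s1: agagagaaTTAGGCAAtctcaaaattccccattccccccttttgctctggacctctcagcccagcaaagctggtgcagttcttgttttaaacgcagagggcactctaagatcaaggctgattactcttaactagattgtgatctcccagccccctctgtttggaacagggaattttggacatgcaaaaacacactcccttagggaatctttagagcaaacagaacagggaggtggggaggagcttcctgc
Capitals in C1s1 mark a TTGCNNAA match at 242 to 235 bases before the start. A second, overlapping C1s1 window holds an NF-kB-like match at 35 to 26. C1ra held no match, which says only that these letters are not in its window.

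Serping1 encodes C1 inhibitor, the serpin that inactivates C1r and C1s. It was counted at 843.9 and 1051.0 CPM in fat pad, against 172.7 and 153.9 in muscle and 464.3 and 473.9 in tendon. The tissues are separate in the order fat pad, tendon, muscle. Fat pad over muscle was 2.54 ± 0.25 (edgeR adjusted p = 0.00021), fat pad over tendon 1.01 ± 0.24 (adjusted p = 0.0101) and tendon over muscle 1.52 ± 0.25 (adjusted p = 0.0107). Serping1 is the one member called in all 3 comparisons, and scaled TPM called it in all 3 as well (2.26, 1.10 and 1.16). The call over tendon was lost without fat pad library 2 (0.84, adjusted p = 0.0501) and with unscaled TPM (0.08), and the call of tendon over muscle without muscle library 1 (1.61, adjusted p = 0.0979) or 2 (1.45, adjusted p = 0.0877).

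C3ar1 encodes the receptor for C3a, the small fragment released from C3, and is expressed by myeloid cells. It stood at 92.1 and 122.3 CPM in fat pad, against 7.67 and 5.68 in muscle and 8.35 and 4.32 in tendon. The fat pad stands apart, and muscle and tendon overlap. C3ar1 was higher in the fat pad by 4.01 ± 0.38 over muscle (edgeR adjusted p = 0.000164) and by 4.08 ± 0.38 over tendon (adjusted p = 0.000185). Tendon over muscle was -0.07 ± 0.34 in counts and 0.84 ± 0.33 from scaled TPM, neither called (edgeR adjusted p = 0.887, limma adjusted p = 0.112), and 1.36 from unscaled TPM, called (limma, adjusted p = 0.033).

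The promoter of C3ar1 is shown as that of the member with the highest fold change over tendon (RefSeq, GRCm38.p6, chr6:122856158-122856407, minus strand).
C3ar1: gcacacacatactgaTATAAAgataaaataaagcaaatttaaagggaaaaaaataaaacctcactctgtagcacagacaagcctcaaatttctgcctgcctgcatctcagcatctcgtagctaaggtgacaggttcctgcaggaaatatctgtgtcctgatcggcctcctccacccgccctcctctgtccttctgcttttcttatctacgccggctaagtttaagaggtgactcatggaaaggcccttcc
Capitals mark TATAAA at 235 to 230 bases before the start, a motif that 12.4% of all promoters of this length hold. None of the other motifs was found in this window.

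The summed level of macrophage markers was highest in the fat pad, as C3ar1 and Cfp were, but the 10 genes did not all move together. They summed to 5000 and 7544 CPM in fat pad, against 414 and 368 in muscle and 425 and 342 in tendon, with none at 0 in any library, and Lyz2 alone gave 4347 and 6588 of the fat pad sums. Of the 10, 6 were called higher in fat pad than in muscle and 0 lower, and 7 higher than in tendon and 1 lower (Mertk). Unscaled TPM called 5 higher and 1 lower over muscle, and 5 higher and 3 lower over tendon. By TPM the sums were 13291 and 20845 in fat pad, against 871 and 704 in muscle and 1294 and 2716 in tendon. Mrc1 stood at 35.9 and 52.5 CPM in fat pad, against 64.5 and 67.5 in muscle. The part of these cells in the complement differences was not tested, and in bulk RNA fewer cells of a type and less RNA per cell cannot be told apart.

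Fibroblast markers (10 genes) summed to 15111 and 17944 CPM in fat pad, against 4511 and 4366 in muscle and 11898 and 9649 in tendon. Serping1 and C1ra share that order in counts. Dcn and Gsn carry most of the fibroblast sum, at 5223 and 8354 CPM in fat pad library 1. Of the 10, 6 were called higher over muscle and 3 lower, and 3 higher over tendon and 4 lower. Col15a1 was among the lower ones. It stood at 2.93 and 4.41 CPM in fat pad, against 139 and 154 in muscle and 239 and 119 in tendon. By TPM the fibroblast sums of fat pad (7434 and 8915) and tendon (7784 and 9994) overlap. Unscaled TPM called 1 of the 10 higher over tendon and 5 lower.

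The adipocyte sum, given above, was highest in the fat pad as Cfb was. All 8 adipocyte markers were called higher over muscle, but 4 of the 8 over tendon, where Lep stood at 65.7 CPM in library 1, against 20.5 in fat pad library 1 and less in fat pad library 2.

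Markers of the synovial lining (5 genes) summed to 14970 and 17835 CPM in fat pad, against 476 and 483 in muscle and 1486 and 889 in tendon, with none at 0. Most of that sum was Prg4, which encodes lubricin. Of the 5, 4 were called higher over muscle and 1 lower (Clic5), and 4 higher over tendon and 0 lower. Neutrophil markers (8 genes counted) summed to 1852 and 251 CPM in fat pad, to 6.71 and 5.57 in muscle and to 0.90 and 1.02 in tendon, where 4 and 2 of them were at 0, Mpo in both libraries. All 8 were called higher in the fat pad in both comparisons from counts. By TPM, which lists 3 of them, the sums were 3658 and 506 in fat pad and 6.65 and 473 in tendon. Unscaled TPM called 1 of these 3 higher over tendon and 2 higher over muscle. The part of fibroblasts, adipocytes, lining cells and neutrophils in the complement values was not tested.

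Hepatocyte markers were checked because liver makes most circulating complement. The 5 hepatocyte markers counted (of 7 listed) summed to 7.0 and 12.1 CPM in fat pad, against 0.47 and 0.68 in muscle and 12.7 and 1.48 in tendon. Alb, the albumin gene, made up 946 counts in tendon library 1 and 48 in library 2, while its TPM there were 14.2 and 13.2. In tendon counts, 8 of the 9 members, C3, C4b, C2 and Cfb among them, were also higher in library 1, and by TPM 0 were. The median log2 ratio of library 2 to library 1 in tendon counts was -0.95 over the 9 members. It was 0.02 over all genes reaching 100 counts in either tendon library. The part of hepatocyte RNA was not tested.

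Among 9560 genes averaging 10 CPM or more, members left out, those with the profile most like C3ar1 over the 6 libraries were Cd53 (root mean square difference 0.08 on the log2 scale), a leukocyte tetraspanin, Cd68 (0.12), a lysosomal protein of macrophages, and C5ar1 (0.19), the receptor for C5a. Closest to Serping1 was Rab3il1 (0.13), to Cfp Mpc1 (0.13), to C1s1 Znrf2 (0.07) and to C1ra Adck2 (0.07). C3 lay closest to Pank3 (0.17), Cfb to Lpar6 (0.28) and C4b to Adcyap1r1 (0.33). These distances describe the counts of 6 libraries and carry no test.

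The other complement genes were taken from 8 lists covering the C1 complex, C4 and C2, the lectin route, the alternative route, terminal components, soluble and membrane regulators, and receptors. Beside the 9 members, 34 of their genes are in every count table and 33 were tested. Of the 33, 19 were called higher in fat pad than in muscle and 2 lower, and 17 higher than in tendon and 4 lower (2 lower without fat pad library 1, fat pad library 2 or tendon library 1). Their median log2 fold change was 1.54 over muscle and 1.61 over tendon, the latter unchanged with Fcnb, which had 0 counts in both tendon libraries, set at its bound of at least 79.5-fold. Between tendon and muscle 5 were higher and 2 lower, with a median of 0.06, beside 13.3% and 12.7% of all genes. Over all genes tested, 29.8% were called higher and 29.6% lower in fat pad than in muscle, against 27.2% and 31.4% for tendon. Unscaled TPM tested 25 of these genes and called 13 higher and 3 lower over muscle. Of all 13647 genes it called 3000 higher and 5818 lower there. It called 12 of the 25 higher and 7 lower over tendon, and 9 higher and 1 lower in tendon over muscle. In these last 2 comparisons it moved the median of all genes to -0.96 and 0.52, against 0.22 and 1.00 for the 25 genes. Its calls over all genes are not given here for these 2, so the counts of called genes stand without that background.

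**Figure D3:**
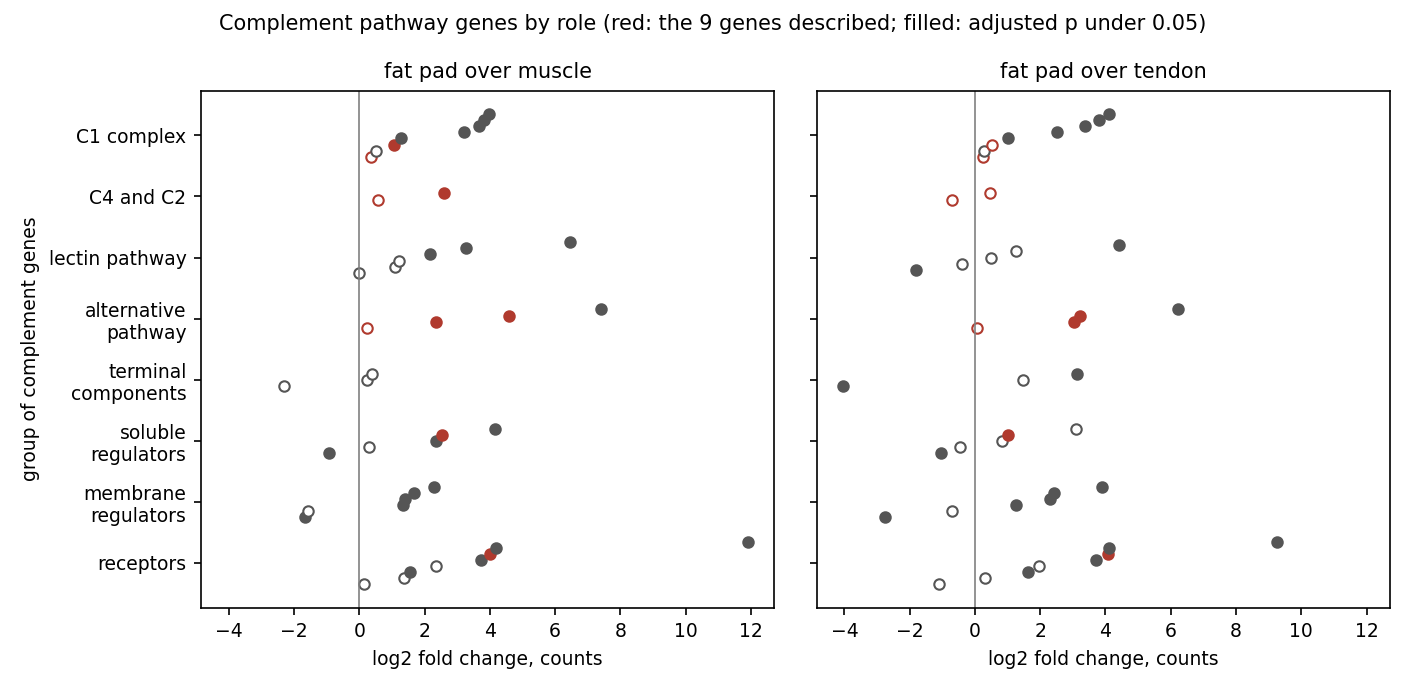
Log2 fold change from counts for each tested complement gene, by role, for fat pad over muscle and fat pad over tendon; red points are the 9 genes described, grey points the other pathway genes, and filled points have an adjusted p under 0.05 in edgeR. Fcnb is left out over tendon because both tendon libraries had 0 counts. The points furthest to the right are Vsig4 among receptors and Cfd in the alternative route, and the terminal components include the lowest value over tendon, C7.

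The C1q chains, which recognise antibody and other targets and start the classical route, were higher in the fat pad in both comparisons. C1qa, C1qb and C1qc had log2 fold changes of 3.21 ± 0.35, 3.82 ± 0.38 and 3.98 ± 0.31 over muscle, and of 3.37 ± 0.35, 3.80 ± 0.38 and 4.11 ± 0.31 over tendon, all called by edgeR (adjusted p = 8.65e-05 to 0.000296). The proteases of the same complex, C1ra and C1s1, stood at 1.07 and 0.37 over muscle. Unscaled TPM called all 3 chains higher in both comparisons too.

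In the alternative route, Cfd encodes factor D, also called adipsin, and was counted at 51767 and 58583 CPM in fat pad, against 155 and 495 in muscle and 1303 and 186 in tendon. Its log2 fold change was 7.41 ± 1.25 over muscle (edgeR adjusted p = 0.0021) and 6.21 ± 1.18 over tendon (adjusted p = 0.00374). In counts, the tendon libraries differ from each other, and so do the muscle libraries, in the same direction as the adipocyte markers. By TPM, Cfd stood at 3631 and 3624 in tendon and at 740 and 2557 in muscle, so the tendon difference is in counts only.

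Among the receptors, the fold changes ranged widely. Vsig4, the complement receptor of resident macrophages, was at 349.5 and 653.3 CPM in the fat pad and at 1.00 CPM or less in each muscle and tendon library. C5ar1 was higher in the fat pad by 4.18 ± 0.35 over muscle and 4.11 ± 0.35 over tendon, close to the values of C3ar1. Itgb2, the shared beta chain of complement receptors 3 and 4, was higher by 3.74 ± 0.42 and 3.71 ± 0.42, and Itgam, the alpha chain of receptor 3, by 1.54 ± 0.47 and 1.61 ± 0.47 (all called by edgeR). From unscaled TPM, Itgam was 0.80 over muscle and -0.44 over tendon, neither called (limma, adjusted p = 0.161 and 0.428).

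Among the regulators, Cd59a, which blocks the membrane attack complex, was higher in the fat pad by 2.29 ± 0.28 over muscle and 2.41 ± 0.28 over tendon, and Cd55, which speeds the decay of convertases, by 1.4 ± 0.3 and 2.32 ± 0.28. Cr1l, a rodent membrane regulator of C3 and C4 cleavage, was higher by 1.33 ± 0.18 and 1.27 ± 0.17. From unscaled TPM the call of Cd55 over muscle (0.80, limma adjusted p = 0.0774) and that of Cr1l over tendon (0.22, adjusted p = 0.413) were lost. Lower in fat pad than in muscle were Cd46, at -1.66 ± 0.36, and Vtn, at -0.93 ± 0.19, which encodes vitronectin, an inhibitor of the terminal complex.

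Lower in fat pad than in tendon were C7, Masp1, Clu and Susd4, the last averaging under 5 CPM in each tissue. C7, a terminal component, had a log2 fold change of -4.05 ± 1.10 (edgeR adjusted p = 0.0168) with 22.6 CPM in tendon library 1 and 1.97 in library 2, while its TPM there were 19.0 and 22.9. Masp1, a protease of the lectin route, was at -1.79 ± 0.41 and Clu, a soluble inhibitor of the terminal complex, at -1.05 ± 0.22. Fcna, which encodes the lectin ficolin A, was higher in the fat pad by 4.42 ± 0.25 over tendon. In tendon over muscle, Masp1 (1.78 ± 0.41) and Serping1 were among the highest of the called pathway genes above 5 CPM, and Fcna (-1.14 ± 0.23) and Cfp were the lowest. The Fcna call was lost from unscaled TPM (0.06). With muscle library 1 or muscle library 2 left out, 0 of the 33 pathway genes was called between tendon and muscle.

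Over muscle, C7 was at -2.30 ± 1.03 in counts (edgeR adjusted p = 0.0926) and called lower from unscaled TPM, at -1.93 ± 0.27 (limma, adjusted p = 0.000462). Genes of the terminal complex listed in the fat pad count table alone had few counts: Hc, which encodes C5, had 53 and 29, C9 44 and 5, C8a 20 and 29, and C8b 31 and 12. These genes were not compared between tissues here.

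The libraries of a tissue also differ from each other, and for complement the tendon pair differs most in counts. In tendon library 2, C4b was 9.68-fold lower than in library 1 (log2 -3.28, 95% interval -3.34 to -3.21), C2 was 5.89-fold lower (-2.56, -2.69 to -2.43), Cfb 3.55-fold lower (-1.83, -1.91 to -1.74) and C3 2.42-fold lower (-1.27, -1.30 to -1.24). The exact conditional binomial intervals cover counting error only, and with 1 library on each side there is no test. At least 2-fold lower in library 2 were 4 of the 9 genes, and 8 of 9 were lower in any degree, Serping1 (0.03) being the exception. Of all genes reaching 100 counts in either tendon library, 7.25% were at least 2-fold lower in library 2 and 3.99% at least 2-fold higher. Their median log2 ratio was 0.02, against -0.95 for the 9 genes.

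The TPM columns turn this pattern around. By TPM all 9 genes were higher in tendon library 2, from 0.16 for C1s1 to 1.18 for C3ar1 on the log2 scale, with C4b at 0.41, C2 at 0.28, Cfb at 0.51 and C3 at 0.50. No share over all genes is given for these TPM ratios, so 9 of 9 cannot be read as particular to complement. Only C3ar1 then reached a 2-fold difference. In counts, all 8 adipocyte markers were at least 2-fold lower in tendon library 2 (median -3.28). The sum of the fast muscle markers was higher there. By TPM the adipocyte sum was 1747 and 1861 in tendon libraries 1 and 2, and the fast muscle sum 116856 and 77219, so lower in library 2. The part of adipocyte RNA in the complement values was not tested, and the 2 sources differ on which library is the higher.

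**Figure D4:**
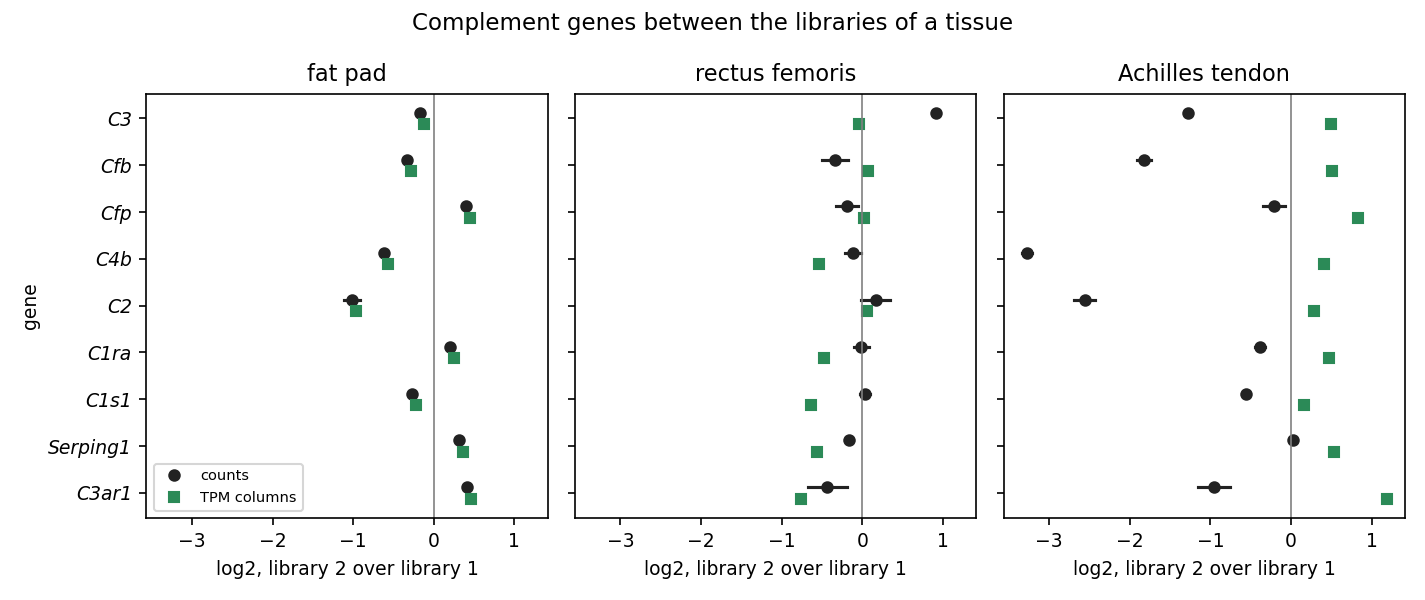
Log2 ratio of library 2 to library 1 for each gene within a tissue, from TMM-scaled counts (black circles, with 95% counting intervals) and from the TPM columns (green squares). Counts and TPM coincide in the fat pad and lie on opposite sides of 0 for 8 of the 9 genes in tendon.

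In the fat pad, where counts and TPM carry the same ratios, C2 was the one member at least 2-fold apart in counts, at 2.02-fold lower in library 2 (log2 -1.01, interval -1.11 to -0.91; -0.96 by TPM), and C4b was at -0.61. C3ar1 (0.41), Cfp (0.40), Serping1 (0.32) and C1ra (0.21) were higher in library 2, and Cfb (-0.34), C1s1 (-0.27) and C3 (-0.17) lower. Macrophage markers were higher in library 2 for 9 of 10 genes (median 0.54), and all 8 neutrophil markers counted were at least 2-fold lower, summing to 1852 and 251 CPM. Their part was not tested. Among all genes with at least 100 counts, 6.19% were at least 2-fold lower in fat pad library 2 and 3.98% at least 2-fold higher.

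In muscle, 0 of the 9 genes differed by 2-fold or more. C3 came closest, at 0.91 (interval 0.87 to 0.95), with 196.7 and 369.5 CPM, and by TPM it was -0.05. Over all genes, 1.29% were at least 2-fold lower and 1.51% at least 2-fold higher in muscle library 2. In the authors' deposited table for the same pairs, every member had an adjusted p of 1.00, from 1 library on each side, and the fold changes there follow TPM.

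Levels between genes compare only per length. In the fat pad, by the authors' TPM, Serping1 stood highest at 862 ± 153 (SD, n = 2) and C2 lowest at 7.11 ± 3.24. Between them lay Cfp at 206 ± 45.0, C3 at 195 ± 11.2, C4b at 137 ± 37.3, C1ra at 116 ± 14.4, Cfb at 103 ± 14.5, C3ar1 at 98.3 ± 21.8 and C1s1 at 75.4 ± 8.10. Cfp and C3 differ by less than their spread, as do C4b and C1ra, C1ra and Cfb, and Cfb and C3ar1. With lengths from the GENCODE M21 exons in place of those in the TPM, Serping1 and C2 kept their places, and Cfb moved from rank 6 to rank 2.

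In tendon, counts per length from GENCODE M21, on a TPM-like scale, put Serping1 first (913 ± 98.0) and C3 second (287 ± 196), and C3ar1 last (6.84 ± 3.81). C3 and C4b (147 ± 175) vary so much between the tendon libraries that their places among C1s1 (174 ± 67.5), C1ra (93.4 ± 28.4) and Cfb (76.1 ± 66.3) are not fixed. In muscle, Serping1 (164 ± 2.51) and C3 (132 ± 68.1) were highest and change places with the other length, and C3ar1 (3.59 ± 0.41), C2 (7.02 ± 1.24) and Cfb (12.6 ± 0.87) were the lowest 3.

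Some of these genes share sequence with others, so their counts may be split or shared. By GENCODE M21 on GRCm38, 79.5% of the exonic bases of Cfb and 46.9% of those of C2 are also exonic in Gm20547, a transcript that joins both genes, which was given 0 counts in the fat pad. Of 100-base windows of C1ra, 34.5% also occur in its copy C1rb, counted at 1379 and 1726 in the fat pad against 7354 and 10547 for C1ra. For C4b, 15.2% occur in C4a, which is not analysed here, and for C1s1 6.87% in C1s2. Of the exonic bases of C1s1, 18.4% are also exonic in Gm16567. C3, Cfp, Serping1 and C3ar1 shared none.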

How the data were processed

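RNA-seq of 6 mouse libraries, 2 each from 3 tissues, was analysed. Bowtie2, RSEM 1.3.1, DESeq2 1.4.5 and GRCm39 stand in the submitters' processing notes with no step named for any of them, and the labels do not state the counting, strand or annotation settings. Per the file headers, the authors deposited whole-number read counts per gene and, in other tables, TPM with their own log2 fold change, p-value and −log10 of it for library 1 over library 2. Without a stated strand setting, overlapping antisense genes cannot be told apart. Unused per-sample columns numbered 0.

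Counts were compared with edgeR 4.0.16 (TMM, filterByExpr, 1 term per tissue over all 6 libraries, glmQLFit and glmQLFTest, Benjamini-Hochberg threshold 0.05, biological coefficient of variation 0.336). A standard error is the log2 change over the root of its F statistic. DESeq2 1.42.0 and limma 3.58.1 on log2(TPM + 1), for genes of at least 1 TPM in 2 libraries, were alternatives; such fold changes understate those of low genes. Within a tissue, shares of all genes cover those reaching 100 counts in either library, with a pseudocount of 0.02 CPM for marker lists. The edgeR script was tested on simulated counts. Libraries of a tissue differed beyond sampling noise (chi-square per degree of freedom 78.8 to 528). The labels give no pairing of libraries across tissues. The library 2 minus library 1 differences correlated at -0.06 (fat pad and muscle), 0.00 (fat pad and tendon) and -0.33 (muscle and tendon) over 11227 genes. Such correlations cannot decide pairing, because each tissue's libraries also differ in ways of their own.

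Members, pathway lists and marker lists were chosen with earlier results of these data known. Named pathway genes are up to 3 called genes at each end averaging 5 CPM or more in the higher tissue, plus genes whose role completes the pathway. The promoter table and GENCODE M21 are on GRCm38, not the files' build, and served only for sequence and lengths. Some genes that these rules name are not reported here.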

Additional observations from a re-analysis of the deposited data

How the results depend on the processing

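Over the settings tried, member fold changes kept their side of the threshold 359 times. With direction unchanged, they crossed into a call 28 times and lost one 20 times. Directions turned 7 times where either fit made a call. Turns with no call in either fit stand among the 359, such as C3 over muscle from scaled TPM (-0.36). For fat pad over muscle, members called higher ranged from 5 to 7 and members lower were 0, except 1 (C3) with unscaled TPM at either pseudocount. Pathway genes called lower were 1 with total counts, and 1 to 3 when a library was left out. For fat pad over tendon, members lower were 4 with log2(TPM + 1), 2 with log2(TPM + 0.1) and 1 (C2) with TMM-scaled TPM, and 0 to 1 with a library left out; pathway genes higher were 10 with log2(TPM + 0.1), and lower were 7 with either pseudocount and 2 to 4 with a library left out.

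For tendon over muscle, members higher were 5 with total counts, 2 with DESeq2, 5 and 4 with log2(TPM + 1) and log2(TPM + 0.1), 4 with TMM-scaled TPM and 0 to 5 with a library left out. Members lower were 0 with total counts, with the library number as a replicate block, with each TPM setting, and 0 to 1 with a library left out. Pathway genes higher were 8 with total counts, 9 with unscaled TPM at either pseudocount and 0 to 7 with a library left out; lower they were 1 with total counts, 5 with DESeq2, 1 with unscaled TPM and 0 to 3 with a library left out. The replicate block, whose numbers are not known to pair the libraries, changed no other call of a member. Crossing the tendon numbers, tried after the data were seen like the TMM-scaled TPM, left 1 member higher and 1 lower.

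Directions turned, with a call in either fit, for C3 over muscle (-0.82 in both unscaled TPM settings) and over tendon (-0.99 in both). They also turned for C4b (-0.87) and C1s1 (-0.76) over tendon with log2(TPM + 1), and for C3ar1 in tendon over muscle (1.36). Library ratios turned with TPM in muscle for C3 (-0.048), Cfb (0.067) and Cfp (0.017), in tendon for C3 (0.50), C4b (0.41), C2 (0.28), Cfb (0.51), Cfp (0.83), C1ra (0.47), C1s1 (0.16) and C3ar1 (1.18), and with total counts in tendon for Serping1 (-0.14). The cause was not tested. Each member had at least 258 counts in each library, and each tissue has 2 libraries.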
